A study of Mus musculus with 29 samples.

Results

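Messenger RNA levels of the enzymes that place, copy and remove DNA methylation were followed across all 9 groups of cultured mouse cells in a study of naive pluripotency and endoderm. The 8 genes are Dnmt1, Uhrf1, Dnmt3a, Dnmt3b, Dnmt3l, Tet1, Tet2 and Tet3, taken by name and not by their values, and found by matching the accession of each array probe to a gene symbol. They have 15 of the 55681 probes on the array. All 8 passed the filter on dim probes and so are among the 16350 genes tested, of 20956 genes with a symbol.

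Methyl groups on cytosines of CpG pairs are set by Dnmt3a and Dnmt3b, the de novo methyltransferases, helped by Dnmt3l, a relative without catalytic activity of its own. After replication, Uhrf1 recognises DNA that is methylated on the parental strand alone and recruits Dnmt1, which copies the mark to the new strand. Tet1, Tet2 and Tet3 oxidise methylated cytosine, which opens a route to its removal. Naive stem cells kept in 2i are known for low genome-wide methylation, primed cells for high methylation, and extraembryonic lineages for lower methylation than the epiblast. The arrays measured transcripts only, not methylation or protein.

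The first set of arrays holds 5 groups of 3 arrays. ESC are naive stem cells in 2i and LIF, from a double reporter line named HRHnG. Diff are these cells after 7 to 8 days of Activin, CHIRON and LIF. Mid (passage 7 to 10) and Late (passage 14 to 15) are expanded endoderm cultures derived from Diff, together called nEnd. XEN are control cells of an extraembryonic endoderm line. The second set holds 2iL (3 arrays) and NACL (4 arrays), which are stem cells after 3 or more passages in 2i with LIF or, for NACL, in N2B27 with Activin, CHIRON and LIF. Their lines were HVMC, E14 and E14-NanogGFP. Also in it are EpiSC (3 arrays), primed epiblast stem cells of a line spelled HRHNG in the labels, and ADE (4 arrays), EpiSC after 4 days of differentiation towards anterior definitive endoderm. Separate differentiations and passages underlie the nEnd replicates. For the remaining groups the labels do not say how replicates were separated, and p-values measure only the spread between these samples, which may be technical.

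Levels are log2 of the spot signal relative to the 75th percentile of its array, so a level of 1 is a signal at 2 times that percentile. Differences are log2 differences of group means with their standard error (SE), and called means an adjusted p (limma, Benjamini-Hochberg over all 16350 genes) under 0.05. Levels of different probes were not set against each other. The share of probes well above background ran from 49.2% to 79.8% by array, 0 were saturated, and replicate arrays correlated at 0.956 or more. Of the primitive endoderm markers, Sox17, Sox7 and Dab2 were not well above background on any ESC array. Gata4 was on all 3 ESC arrays, Pdgfra on 2 and Gata6 on 1. Nanog and Sox2 were not well above background on any XEN array. The other 5 of 6 naive stem cell markers were on every XEN array, and the 6 had a summed relative signal of 18.3 to 26 there. Of the 6, Klf4 had the highest mean level in XEN, 4.06. All 6 primitive endoderm markers were measured on every Diff, Mid, Late and XEN array. All 6 naive stem cell markers were also measured on every Diff array, with a summed relative signal of 58 to 127 in Diff, 356 to 365 in ESC and 30.9 to 47 in Mid. The single genes differed. From ESC to Diff, mean levels fell for Nanog (4.16 to -0.5), Esrrb (7.01 to 3.82) and Klf2 (5.6 to 2.11). So did those of Zfp42 (6.58 to 4.64) and Tfcp2l1 (5.28 to 2.21), while Klf4 changed little (4.91 to 4.61, and 4.62 in Mid). General pluripotency markers summed to 35.6 to 80.3 in Diff, 79.7 to 90.2 in ESC and 6.91 to 10 in Mid. Among them Utf1 rose from ESC to Diff (3.62 to 4.96), while Sox2 (3.62 to 0.45) and Pou5f1 (5.88 to 4.66) fell. The part that cells with these markers have in the values of Tet1, Tet2, Dnmt3l and other members in Diff was not tested. The primed epiblast list summed to 59.3 to 85.7 in EpiSC and, against that label, to more in ADE, 243 to 319. Of its genes, Otx2 (mean level 3.45 in EpiSC and 7.46 in ADE) and Fgf5 (3.85 and 6.42) were higher in ADE. Pou3f1 (5.02 and 1.07), Sox3 (3.01 and 2.1) and T (1.33 and -2.75) were lower there. The anterior definitive endoderm list summed to 6.95 to 8.33 in EpiSC and to 261 to 361 in ADE. Slides, scan days and software versions all differ between the array sets, so groups were compared within a set.

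As ESC turned into Diff, Dnmt3l, Dnmt3b and Dnmt3a of de novo methylation rose, while Uhrf1 and Dnmt1 of maintenance and the oxidases Tet1 and Tet2 fell. Tet3 was not called. For Tet3, calls here and in the next paragraphs are those of its brightest probe, and its other probes differ in direction. Thus 7 of 8 members were called, 3 higher and 4 lower, where 42.3% of all genes were called, 23.5% higher and 18.9% lower. On expansion to Mid, Dnmt3l, Tet1, Dnmt3b, Tet2 and Uhrf1 fell. These are 5 of 8, all lower, beside 29.1% of all genes called, 12.3% higher and 16.8% lower.

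Between Mid and Late 0 of 8 members were called by limma, beside 6.84% of all genes (3.77% higher and 3.06% lower). At an unadjusted p under 0.05 there were 4, namely Tet2, Tet3, Dnmt3b and Uhrf1. Same-numbered arrays of these groups deviated together, and with their numbers as pairs, on these 6 arrays alone, 0 members and 0 of all genes were called (2 members and 3487 genes at an unadjusted p under 0.05).

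Over the whole course, nEnd minus ESC, 8 of 8 members were called, Dnmt3a and Dnmt3b higher and the other 6 lower, with Tet3 lower on its brightest probe and called higher on its other probes. Of all genes 53.2% were called in that comparison, 28% higher and 25.2% lower. Against XEN, nEnd had lower Tet1, Uhrf1 and Dnmt1, and Tet3 was lower on its brightest probe, a call lost in 11 of the alternatives. These make 4 of 8 lower and 0 higher, where 41% of genes were called, 16.6% higher and 24.4% lower. XEN minus ESC called 6 of 8, 2 higher (Dnmt3a and Dnmt3b) and 4 lower (Tet2, Dnmt3l, Tet1 and Uhrf1), where 52.1% of genes were called, 30.7% higher and 21.4% lower. These comparisons share ESC, XEN or nEnd arrays and are not independent of each other. Line and culture cannot be told apart in those with XEN.

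In the second set, EpiSC minus 2iL called 5 of 8, with Dnmt3a higher and Dnmt3l, Tet2, Uhrf1 and Tet1 lower, beside 41.5% of all genes (21.4% higher and 20.1% lower). ADE minus EpiSC called 7 of 8, with Dnmt3b and Tet2 higher and Dnmt3l, Dnmt3a, Tet1, Uhrf1 and, on its brightest probe, Tet3 lower, beside 37.6% of all genes (16.9% higher and 20.7% lower). NACL minus 2iL called 0 of 8 in limma's fit, beside 8.24% of all genes (4.12% higher and 4.13% lower), with 3 members at an unadjusted p under 0.05, namely Dnmt3l, Tet1 and Dnmt3a. NACL and 2iL share their lines, which that fit leaves out. With cell line as a block, 1 member (Dnmt3l) and 1398 genes were called. Lines differ between EpiSC and 2iL, and line and state cannot be told apart there.

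Each of the 42 called member differences between a pair of groups kept its sign on every slide that held both groups. Where the arrays of the groups did not overlap, this could not be otherwise, so it is no separate support. The arrays of the groups overlapped in spite of a call for Dnmt1 in Diff minus ESC, Uhrf1 in Mid minus Diff, and Tet3 in nEnd minus XEN and in ADE minus EpiSC.

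**Figure D1:**
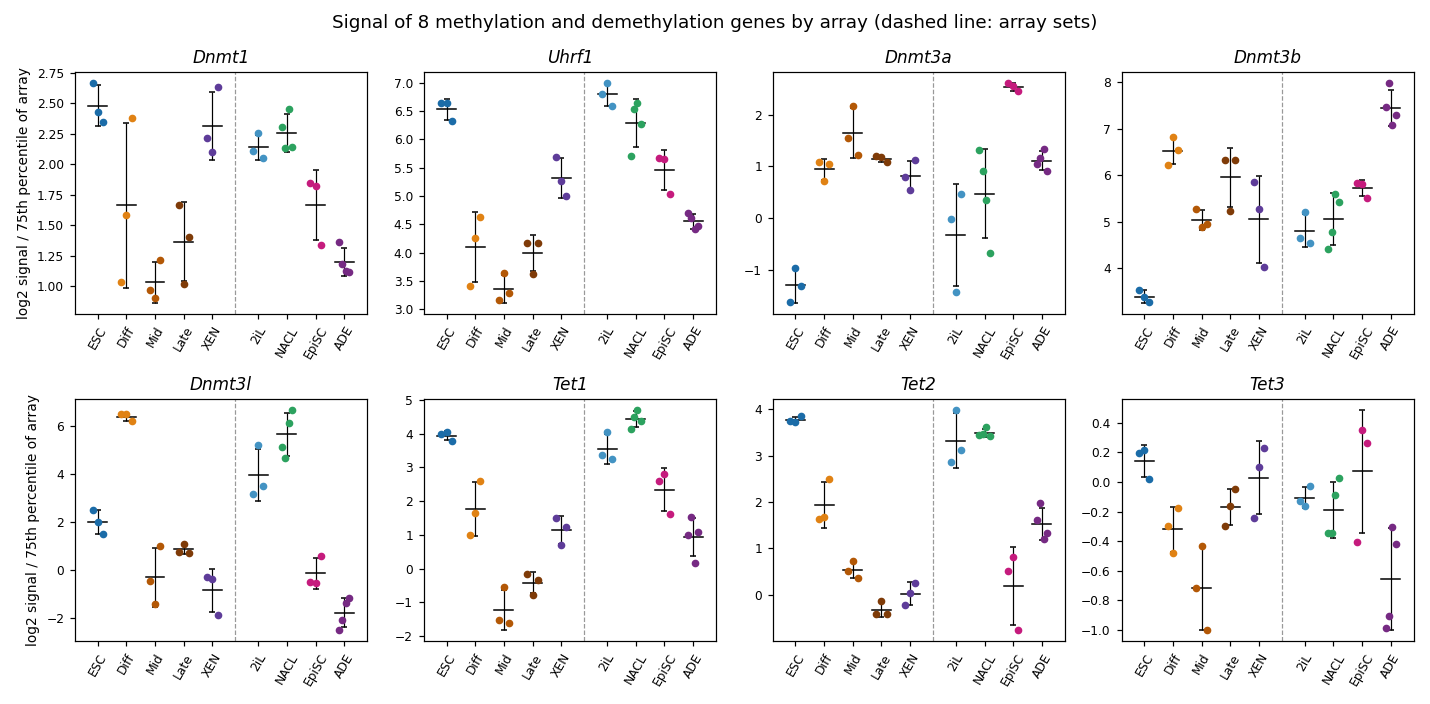
Level of each member by array, as log2 signal relative to the array's 75th percentile, for the first array set (left of the dashed line) and the second (right). Points are arrays, horizontal lines group means and bars ± SD; each panel has its own scale. Dnmt3l stands at 6.19 to 6.47 in Diff and at 1.01 or lower in Mid, and Tet1 and Tet2 are highest in the stem cell groups ESC, 2iL and NACL.

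Uhrf1, the reader that brings Dnmt1 to replicated DNA, had levels of 6.63, 6.63 and 6.32 in ESC replicates 1 to 3. In Diff these were 3.41, 4.26 and 4.62. Every Diff array lay below every ESC array, and the fall was 2.43 ± 0.28 (SE, n = 3 and 3; limma adjusted p = 2.2e-07), or 5.39-fold. The single slide with both groups gave -2.37. In a bulk culture such a fall can come from fewer cells with the transcript or from less of it per cell, and these cannot be told apart.

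Mid arrays had Uhrf1 at 3.16, 3.63 and 3.28, and Late arrays at 4.17, 3.62 and 4.18. Mid overlapped with Diff, and the step of -0.74 ± 0.28 (limma adjusted p = 0.048) lost its call in 16 of the alternatives, among them those with a replicate block or without Diff 2, Diff 3, Mid 1 or Mid 3. Late minus Mid was 0.63 ± 0.28 (adjusted p = 0.19, not called). From ESC to nEnd, Uhrf1 fell by 2.85 ± 0.24 (n = 6 and 3; limma adjusted p = 7.2e-10), 7.22-fold.

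XEN kept more Uhrf1, at 5.69, 5.25 and 5.01, below every ESC array and above every nEnd array. It fell by 1.21 ± 0.28 from ESC to XEN (limma adjusted p = 0.00076), a call lost when arrays were centred on their median (-0.57), and nEnd lay below XEN by 1.64 ± 0.24 (limma adjusted p = 7.5e-06). In the second set, 2iL stood at 6.79, 6.99 and 6.59, NACL at 5.70 to 6.65, EpiSC at 5.66, 5.65 and 5.04, and ADE at 4.42 to 4.70. Uhrf1 fell by 1.34 ± 0.28 from 2iL to EpiSC (limma adjusted p = 0.00039) and by a further 0.90 ± 0.26 to ADE (n = 4 and 3; adjusted p = 0.0081), each time with no overlap. A second, dimmer Uhrf1 probe was called lower in Diff minus ESC (-3.04), nEnd minus ESC (-3.09), nEnd minus XEN (-1.48), XEN minus ESC (-1.61) and EpiSC minus 2iL (-1.35), but not in ADE minus EpiSC (-0.64) or Mid minus Diff (-0.23).

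Dnmt1, the maintenance methyltransferase, moved in the same direction but less. ESC arrays had 2.67, 2.43 and 2.35, and Diff arrays 1.03, 1.58 and 2.38. The groups overlapped, since Diff 3 lay above the lowest ESC array. The fall was 0.82 ± 0.24 (limma adjusted p = 0.0083), and its call was lost without Diff 1 (-0.50), with median centring (-0.46) and in the fit on the 6 arrays compared alone.

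In Mid, Dnmt1 stood at 0.97, 0.90 and 1.22, and in Late at 1.67, 1.02 and 1.40. All 6 nEnd arrays lay below all ESC arrays, with a fall of 1.29 ± 0.21 (limma adjusted p = 1.5e-05), 2.44-fold. XEN, at 2.22, 2.10 and 2.63, was not called against ESC (-0.17 ± 0.24, adjusted p = 0.6), and nEnd lay below XEN by 1.12 ± 0.21 (limma adjusted p = 0.00015). No step was called in the second set, where Dnmt1 was 2.11, 2.25 and 2.05 in 2iL, 2.13 to 2.45 in NACL, 1.85, 1.82 and 1.34 in EpiSC, and 1.12 to 1.37 in ADE, with adjusted p = 0.13 for EpiSC minus 2iL and 0.11 for ADE minus EpiSC.

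Other genes that act with Uhrf1 and Dnmt1 at replicated DNA went along in part. Of 8 such genes 5 were lower and 2 higher in Diff minus ESC (median -0.79, beside -0.04 over all genes, of which 18.9% were lower and 23.5% higher), and 6 were lower and 2 higher in nEnd minus ESC (median -1.095, beside -0.05 over all genes, of which 25.2% were lower and 28% higher). Cdca7l, counted among the 6 lower in nEnd, was well above background on 0 of 6 nEnd arrays and 2 of 3 ESC arrays. It passed the filter through other groups. Lig1, the ligase that joins newly made DNA fragments, fell by 0.98 ± 0.16 in Diff and by 1.44 ± 0.14 over the whole course. Cdca7, an activator of the remodeller Hells, fell by 1.79 ± 0.30 and by 2.35 ± 0.26. Kat5, an acetyltransferase, rose by 0.62 ± 0.15 and by 1.05 ± 0.13.

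Genes of S phase and DNA replication were followed beside these members. Of 19 tested of 20, 9 fell and 0 rose in Diff minus ESC (median -0.53), beside 18.9% and 23.5% of all genes. In Mid minus Diff 10 fell and 0 rose (median -0.59), beside 16.8% and 12.3% of all genes. In nEnd minus ESC 16 fell and 0 rose (median -0.91), beside 25.2% and 28%. In nEnd minus XEN 16 were lower and 0 higher (median -1.08), beside 24.4% and 16.6%. In Late minus Mid 6 were higher and 0 lower (median 0.45), beside 3.77% and 3.06% of all genes. In XEN minus ESC, where Uhrf1 fell, 5 were higher and 2 lower (median 0.30), not above the 30.7% and 21.4% of all genes. Mcm5, a subunit of the replicative helicase, fell by 1.20 ± 0.24 from ESC to Diff and by a further 0.88 ± 0.24 to Mid, and Mcm6, of the same complex, rose by 0.78 ± 0.16 from Mid to Late. In ADE minus EpiSC 12 of 19 fell and 0 rose (median -0.72), beside 20.7% and 16.9% of all genes.

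The mean level of these 19 genes on each array was set beside Dnmt1 and Uhrf1. After the mean of each array set was subtracted, Pearson's r over the 29 arrays was 0.917 for Dnmt1 and 0.87 for Uhrf1. It was 0.793 for Tet1, 0.557 for Tet3, 0.445 for Dnmt3l, 0.44 for Tet2, -0.511 for Dnmt3a and -0.546 for Dnmt3b. The arrays share 9 groups and their depth of signal, so these values are a description. Diff 1, with the lowest Dnmt1 and Uhrf1 of its group, also had the lowest S phase mean, 3.25 against 3.795 and 3.873. The part that the share of cycling cells has in the changes of Dnmt1 and Uhrf1 was not tested.

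**Figure D2:**
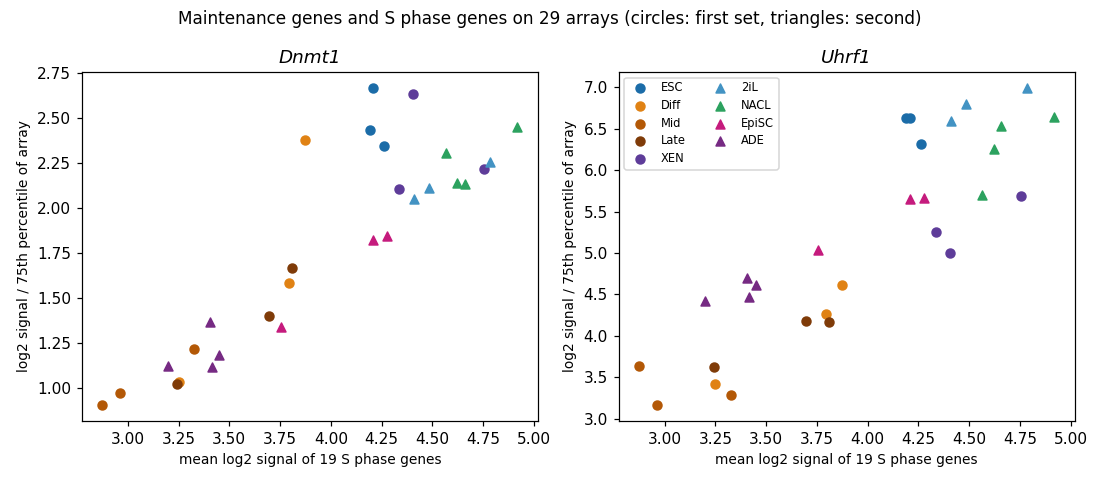
Level of Dnmt1 (left) and Uhrf1 (right) against the mean log2 level of 19 S phase genes; each point is 1 of 29 arrays, coloured by group, with circles for the first array set and triangles for the second. Mid, ADE and Diff 1 lie at the lower left and the stem cell groups at the upper right, and XEN arrays have Uhrf1 at 5.01 to 5.69, below ESC, at S phase means of 4.34 to 4.76.

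The genes most like Uhrf1 over the 29 arrays, by Pearson's r after subtracting the mean of each set, were Rcc2 (0.963), Parp1 (0.955) and Mcm10 (0.953). Those most like Dnmt1 were Fbxl14 (0.947), Nfib (0.941) and Bard1 (0.939).

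The RefSeq promoter windows of GRCm38.p6, 250 bases before to 50 after each annotated start, were searched on both strands for TTTCGCGC and TTTGGCGC, letters of E2F sites, which are common in S phase genes. These letters occurred in 0.81% of all 32851 windows (0.93% of genes), and in windows of 5 of 17 S phase genes that matched the table. Both sequences hold CpG, and S phase windows had a median of 24.5 CpG, beside 7 over all windows. Among the 8 members, windows of Dnmt1 and Uhrf1 alone held them, with 33 CpG in each such window. Windows of Tet2 (57) and Dnmt3a (46 and 47) held more CpG and no match. The part of CpG content in these shares was not tested. The 30-base stretches are shown because these members followed the S phase genes most closely; capitals mark the letters searched or their reverse complement. The Uhrf1 stretch lies at chr17:56304117-56304146 on the plus strand, 185 bases before an annotated start, and the Dnmt1 stretches at chr9:20952824-20952853 and chr9:20952574-20952603 on the minus strand, 219 bases before and 33 bases after a start. A match is not evidence of binding.
Uhrf1: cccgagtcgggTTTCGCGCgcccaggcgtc
Dnmt1, upstream: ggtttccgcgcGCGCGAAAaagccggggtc
Dnmt1, downstream: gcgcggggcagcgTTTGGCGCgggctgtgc

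Dnmt3l, the cofactor of the de novo enzymes, had the largest rise into Diff and the largest fall out of it among the 8 genes. Its level was 2.51, 2.01 and 1.50 in ESC and 6.47, 6.47 and 6.19 in Diff, which is far above every ESC array. It rose by 4.37 ± 0.60 (n = 3 and 3; limma adjusted p = 2.9e-06), 20.7-fold. In Mid it stood at -0.44, -1.42 and 1.01.

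From Diff to Mid Dnmt3l fell by 6.66 ± 0.60 (limma adjusted p = 4.5e-08), 101-fold, which ranked 17 by size among all 16350 genes. The values within the slides that held both groups were -7.90 and -6.91. Late arrays had 0.77, 1.096 and 0.73, and Late minus Mid was 1.15 ± 0.60 (adjusted p = 0.28, not called). The end point lay below the start: nEnd minus ESC was -1.72 ± 0.52 (limma adjusted p = 0.0073), and this call was lost without ESC 1 (-1.47, adjusted p = 0.05).

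XEN had Dnmt3l at -0.28, -0.37 and -1.86, below ESC by 2.85 ± 0.60 (limma adjusted p = 0.00033). The difference nEnd minus XEN, 1.13 ± 0.52, was not called (adjusted p = 0.087) and was called without Mid 2 (1.41). The marked peak of Diff thus lay between a moderate level in ESC and low levels in nEnd and XEN.

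Dnmt3l was high in both stem cell media of the second set, at 3.19, 5.20 and 3.48 in 2iL and 5.13, 4.68, 6.09 and 6.65 in NACL. The groups overlapped through 2iL 2, of line E14. Within each line NACL lay above 2iL. The values were 5.13 and 4.68 against 3.19 in HVMC, 6.09 against 5.20 in E14 and 6.65 against 3.48 in E14-NanogGFP. In the main fit, which leaves line out, NACL minus 2iL was 1.68 ± 0.56 (n = 4 and 3, limma adjusted p = 0.066, not called). This was called without 2iL 2 (2.30), without NACL 2 (2.00), with cell line as a block (1.90), with slide as a random block (1.71), with normexp background correction (1.57) and in the deposited table (1.52). EpiSC had -0.48, -0.52 and 0.59, a fall from 2iL of 4.09 ± 0.60 (limma adjusted p = 7.2e-06), 17-fold. ADE had -2.47, -2.06, -1.37 and -1.15, a further fall of 1.63 ± 0.56 (limma adjusted p = 0.025), whose call was lost without EpiSC 3 (-1.26), ADE 1 (-1.39) or ADE 2 (-1.53) and with normexp background correction (-0.97).

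Dnmt3b, a de novo enzyme, was lowest in ESC, at 3.53, 3.37 and 3.27, and reached 6.23, 6.81 and 6.55 in Diff. It rose by 3.14 ± 0.38 (limma adjusted p = 4.7e-07), 8.82-fold, with all Diff arrays above all ESC arrays. In Mid it was 5.28, 4.89 and 4.95, a fall of 1.49 ± 0.38 from Diff (adjusted p = 0.0046), and in Late 6.32, 5.22 and 6.33 (Late minus Mid 0.92 ± 0.38, adjusted p = 0.15). It stayed above ESC in nEnd by 2.11 ± 0.33 (limma adjusted p = 7.9e-06).

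XEN had Dnmt3b at 5.86, 5.27 and 4.02, spread over a wide range but above ESC by 1.66 ± 0.38 (limma adjusted p = 0.00072). The difference nEnd minus XEN was 0.45 ± 0.33 (adjusted p = 0.3) and became a call with quantile normalization (0.84). In the second set the levels were 4.66, 5.21 and 4.55 in 2iL, 4.41 to 5.60 in NACL, 5.82, 5.81 and 5.52 in EpiSC, and 7.07 to 7.99 in ADE. ADE stood above all other groups of its set, with a rise from EpiSC of 1.74 ± 0.35 (n = 4 and 3; limma adjusted p = 4e-04). EpiSC minus 2iL was 0.91 ± 0.38 (adjusted p = 0.056, not called), although no array overlapped. It was called in the fit on these groups alone and without 2iL 2. With quantile normalization, normexp and slide as a random or a fixed block it was called too. The deposited table, which holds probe 2 alone of its probes, and the mean of all probes also gave a call. Those alternatives bring in the other probes named next. The other 2 probes of Dnmt3b gave 3.05 and 3.34 in Diff minus ESC and 1.84 and 1.84 in ADE minus EpiSC, and both were called in EpiSC minus 2iL (1.17 and 1.09).

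Dnmt3a, the second de novo enzyme, had -1.63, -0.97 and -1.31 in ESC and 1.08, 0.72 and 1.05 in Diff, a rise of 2.25 ± 0.40 (limma adjusted p = 8e-05). It did not come down again on expansion. Mid had 1.55, 2.17 and 1.22 and Late 1.20, 1.18 and 1.08, with neither step called, and nEnd lay above ESC by 2.70 ± 0.35 (limma adjusted p = 6.1e-07), 6.49-fold. XEN, at 0.80, 0.54 and 1.12, was above ESC by 2.12 ± 0.40 (limma adjusted p = 1e-04) and was not called against nEnd (0.58 ± 0.35, adjusted p = 0.2).

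In primed cells Dnmt3a was at its highest level of the second set. EpiSC had 2.61, 2.55 and 2.45, against -0.02, -1.43 and 0.47 in 2iL, a rise of 2.86 ± 0.40 (limma adjusted p = 4.2e-06), 7.28-fold. ADE, at 0.91 to 1.33, lay below all EpiSC arrays, a fall of 1.42 ± 0.38 (limma adjusted p = 0.0043), so that Dnmt3a and Dnmt3b went opposite ways from EpiSC to ADE. NACL had 1.32, 0.91, 0.35 and -0.67 across its lines, and NACL minus 2iL was 0.80 ± 0.38 (adjusted p = 0.22), called without NACL 4 (1.19).

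**Figure D3:**
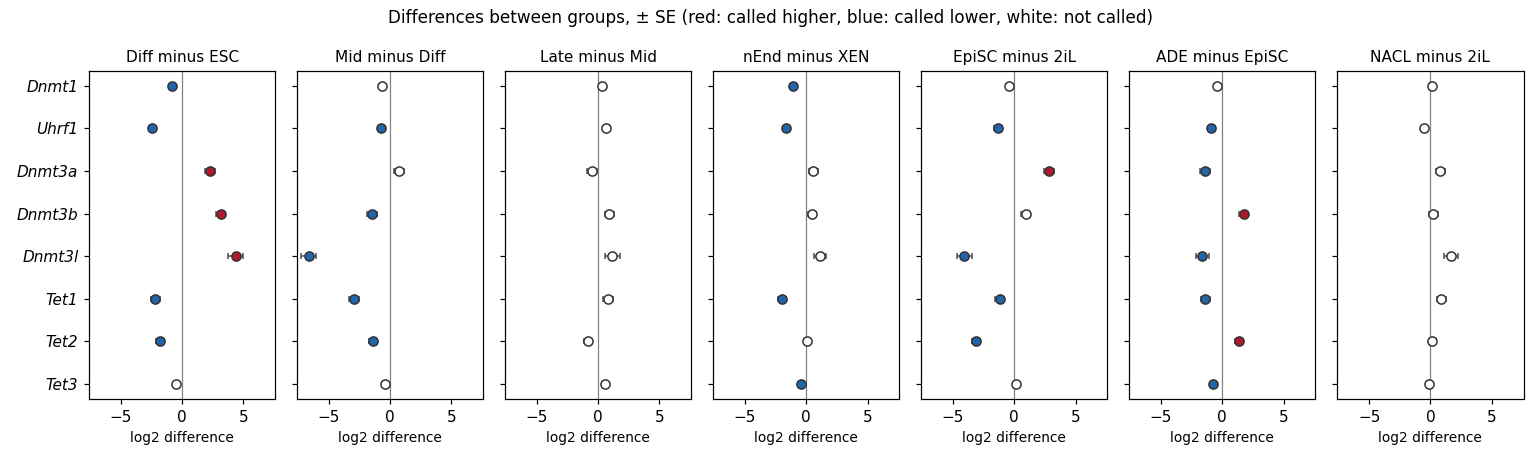
Log2 difference of each member in 7 comparisons, with bars of ± SE, in red where called higher, blue where called lower and white where not called. Dnmt3a, Dnmt3b and Dnmt3l lie to the right in Diff minus ESC, where the other 5 members lie to the left, and all members are white in Late minus Mid and NACL minus 2iL.

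The promoter windows of the de novo genes differ in CpG content. The single Dnmt3b window holds 30 CpG pairs and the Dnmt3a windows 46, 47 and 18, where the median over all windows is 7. The 3 Dnmt3l windows hold 6, 4 and 3. Of all windows, 89.4% have as few CpG as Dnmt3b or fewer, and 31.4% to 47.9% as few as the Dnmt3l windows. The 150 bases before an annotated start are shown for both genes because both transcripts rose in Diff and their annotated starts are unlike in composition. Capitals mark CpG. The positions are chr2:153649299-153649448 for Dnmt3b, and chr10:78042137-78042286 and chr10:78049692-78049841 for the first and second Dnmt3l starts, all on the plus strand. Which start was used in these cells was not measured.
Dnmt3b: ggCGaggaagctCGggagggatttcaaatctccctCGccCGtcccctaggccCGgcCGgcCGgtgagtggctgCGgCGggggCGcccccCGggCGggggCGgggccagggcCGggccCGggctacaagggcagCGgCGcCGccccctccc
Dnmt3l, first start: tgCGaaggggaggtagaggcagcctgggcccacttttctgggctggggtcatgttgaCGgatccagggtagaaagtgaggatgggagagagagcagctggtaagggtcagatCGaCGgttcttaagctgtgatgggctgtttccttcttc
Dnmt3l, second start: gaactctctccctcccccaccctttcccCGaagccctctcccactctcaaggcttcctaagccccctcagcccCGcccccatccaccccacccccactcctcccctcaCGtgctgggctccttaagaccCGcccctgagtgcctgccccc

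Genes most like Dnmt3l over the 29 arrays were Tex12 (r = 0.935), AF067061 (0.919) and Gm20767 (0.918); Tex12 is a meiotic chromosome protein. Lypla2 (0.921) and Lrrn4 (0.913) were among those most like Dnmt3b, and Rsph3b (0.928), Rdh14 (0.924) and AU040320 (0.92) most like Dnmt3a.

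Of 14 genes known to regulate the methylation enzymes or to protect imprinted and repeated loci, 7 were lower and 2 higher in Diff minus ESC (median -1.01), beside 18.9% and 23.5% of all genes. Several of them, Prdm14 included, passed the filter through stem cell groups and lay near background elsewhere, so counts of falls from those groups are not given for the later steps. Zfp57, which guards imprinted methylation, fell by 2.53 ± 0.36 into Diff and by a further 2.73 ± 0.36 into Mid. Prdm14, a repressor of de novo methyltransferase genes in naive cells, fell by 4.01 ± 0.69 into Mid, where 1 of 3 arrays was well above background. In EpiSC it was not well above background and was at least 653-fold lower than in 2iL. Lin28a, an RNA-binding protein, rose by 3.61 ± 0.29 in Diff, and by 1.95 ± 0.27 in NACL against 2iL.

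Tet1, an oxidase of methylated cytosine that is abundant in stem cells, fell in 2 steps. ESC had 4.00, 4.05 and 3.79, Diff 1.01, 1.66 and 2.60, and Mid -1.52, -0.55 and -1.61. No array overlapped between these groups. The falls were 2.19 ± 0.39 (limma adjusted p = 7.2e-05) and 2.98 ± 0.39 (adjusted p = 5.3e-06).

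Late had Tet1 at -0.17, -0.77 and -0.33 (Late minus Mid 0.80 ± 0.39, adjusted p = 0.23). From ESC to nEnd Tet1 fell by 4.76 ± 0.34 (n = 6 and 3; limma adjusted p = 4e-11), 27.2-fold. XEN, at 1.49, 0.70 and 1.25, lay between, below ESC by 2.80 ± 0.39 (limma adjusted p = 1.8e-06) and above nEnd, which was lower by 1.97 ± 0.34 (adjusted p = 5.3e-05). The second probe of Tet1 gave smaller values in the same directions, -3.20 in nEnd minus ESC and -0.60 in nEnd minus XEN, both called.

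Among the second set Tet1 was 3.36, 4.05 and 3.24 in 2iL and 4.14 to 4.70 in NACL (NACL minus 2iL 0.88 ± 0.36, adjusted p = 0.15). EpiSC had 2.59, 2.81 and 1.63, lower than 2iL by 1.20 ± 0.39 (limma adjusted p = 0.015). That call was lost without 2iL 2 (-0.95), without EpiSC 3 (-0.85), with median centring (-1.09) and in the fit on these groups alone. ADE had 1.00, 1.52, 0.17 and 1.09, a fall of 1.40 ± 0.36 from EpiSC (limma adjusted p = 0.0037).

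Tet2, a second oxidase, had 3.74, 3.74 and 3.85 in ESC, 1.63, 1.68 and 2.51 in Diff, and 0.52, 0.72 and 0.37 in Mid. Again no array overlapped, and the falls were 1.84 ± 0.32 (limma adjusted p = 5.8e-05) and 1.40 ± 0.32 (adjusted p = 0.0021). Within the first scan day the second fall was -1.03 and was not called. Late lay lower still at -0.41, -0.13 and -0.42, below every Mid array, but the step of -0.86 ± 0.32 was not called (adjusted p = 0.11).

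From ESC to nEnd Tet2 fell by 3.67 ± 0.28 (limma adjusted p = 1.3e-10), 12.7-fold, and from ESC to XEN by 3.75 ± 0.32 (adjusted p = 9.8e-10). With XEN at -0.22, 0.05 and 0.26, the difference nEnd minus XEN was 0.08 ± 0.28 (adjusted p = 0.84). Tet2, like Dnmt3a in the opposite sense, changed one way from 2iL to EpiSC and the other way from EpiSC to ADE. It was 2.87, 3.98 and 3.13 in 2iL, 3.42 to 3.63 in NACL, 0.51, 0.83 and -0.76 in EpiSC, and 1.61, 1.97, 1.20 and 1.34 in ADE. It fell by 3.13 ± 0.32 from 2iL to EpiSC (limma adjusted p = 4.3e-08), 8.78-fold, and rose by 1.34 ± 0.30 from EpiSC to ADE (adjusted p = 0.001). The second probe gave -3.13 and 1.27, both called.

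The direction for Tet3, the oxidase of the oocyte and early embryo, depended on the probe. Its brightest probe had 0.20, 0.22 and 0.02 in ESC, -0.72, -0.43 and -0.998 in Mid and -0.30, -0.16 and -0.05 in Late, so that nEnd minus ESC was -0.59 ± 0.18 (limma adjusted p = 0.0089). With median centring this was -0.30 and not called. Diff, at -0.30, -0.48 and -0.18, lay below all ESC arrays, but the step of -0.46 ± 0.21 was not called (adjusted p = 0.08). On probe 2, no ESC array was well above background and all Mid and Late arrays lay higher, with a fitted difference of 2.34 ± 0.49 (adjusted p = 0.00038) that is no bound, since the ESC level was not measured. On probe 3 ESC had -2.88, -3.01 and -2.76, Mid -1.85, -1.97 and -1.92, and Late -1.91, -1.81 and -1.71, with a rise of 1.02 ± 0.36 (adjusted p = 0.023).

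Probe 2 was well above background on 16 of 29 arrays and probe 3 on 27. All 3 probes carry the same accession. The mean over the probes gave 0.93 in nEnd minus ESC, 1.04 in XEN minus ESC and 0.17 in ADE minus EpiSC, against -0.59, -0.12 and -0.73 for the brightest probe. Whether the probes read different transcripts was not tested, and no direction is given here for Tet3 as a gene. The remaining calls of the brightest probe, -0.47 ± 0.18 in nEnd minus XEN (limma adjusted p = 0.042) and -0.73 ± 0.20 in ADE minus EpiSC (adjusted p = 0.0052), were lost in 10 and in 1 of the alternatives that kept this probe, the latter the fit on those groups alone.

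**Figure D4:**
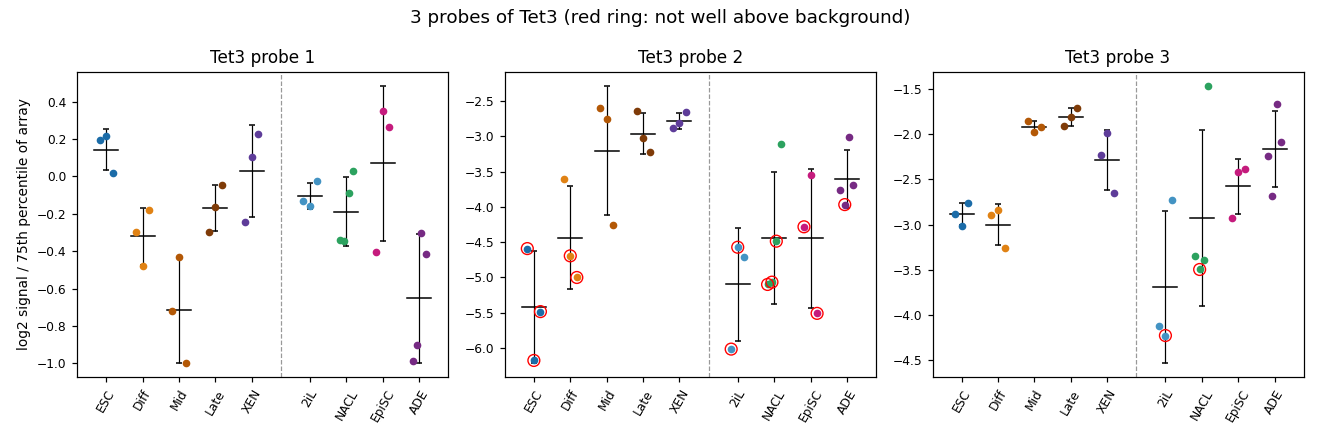
Level of Tet3 by array on its 3 probes, as log2 signal relative to the array's 75th percentile; points are arrays, lines group means, bars ± SD, and red rings mark arrays not well above background. Mid and Late lie below ESC on probe 1 and above ESC on probes 2 and 3.

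Chchd10 (r = 0.952), Fkbp5 (0.952) and Fanca (0.943) were most like Tet1, and Tekt1 (0.946), Zfp710 (0.946) and Dlgap3 (0.944) most like Tet2. For Tet3 the likeness was weaker, with Gm6498 (0.815), Gm8709 (0.814) and Lama3 (0.79). The Tet2 promoter window holds 57 CpG pairs, and 99.9% of all windows have as few or fewer, while Tet1 has 17 and Tet3 22.

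Among 17 partners of oxidation and base excision, 8 were lower and 3 higher in Diff minus ESC (median -0.69), and 9 lower and 3 higher in nEnd minus ESC (median -1.01), beside the same shares of all genes as above. Parp1, an enzyme of DNA break repair, fell by 1.98 ± 0.25 and by 2.51 ± 0.22, and Apobec1, a cytidine deaminase, fell by 5.48 ± 0.47 in nEnd minus ESC. Gadd45g, a stress-response gene linked to demethylation, rose by 4.53 ± 0.41 and by 5.68 ± 0.35. In ADE minus EpiSC 8 of 17 were lower and 0 higher, beside 20.7% and 16.9% of all genes. Gadd45a, of the same family as Gadd45g, fell there by 3.33 ± 0.35. Of 7 genes whose proteins read methylated CpG, 3 were higher and 1 lower in Diff minus ESC, beside 23.5% and 18.9% of all genes. In nEnd minus ESC 5 were higher and 1 lower (median 0.70), beside 28% and 25.2%. Mbd2 was up by 1.73 ± 0.22 and 1.98 ± 0.19.

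Of 15 genes that supply the methyl donor, 5 were lower and 2 higher in Diff minus ESC, beside 18.9% and 23.5% of all genes, and 8 lower and 1 higher in nEnd minus ESC, beside 25.2% and 28%. Shmt2, which feeds 1-carbon units from serine, fell by 1.95 ± 0.25 and by 2.46 ± 0.22, and Tdh, which breaks down threonine, fell by 10.52 ± 0.58 in EpiSC minus 2iL. Of 11 genes around alpha-ketoglutarate, the cosubstrate of Tet enzymes, 4 rose and 4 fell in Diff minus ESC, beside 23.5% and 18.9% of all genes. Psat1, which yields alpha-ketoglutarate in serine synthesis, fell by 3.18 ± 0.27, and Idh1 rose by 1.41 ± 0.21.

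Germline genes known to be kept silent by promoter methylation were listed beside the enzymes, as transcripts and not as a measure of methylation. Of 13 such genes 11 were tested. Among them Dazl, Hormad1, Stk31, Ddx4, Mael and Piwil2 were well above background on no array, or on some arrays only, in Mid, XEN, EpiSC or ADE. Such genes, which passed the filter through groups where they were high, could hardly do other than fall from there, so no count of falls is given. Dazl, an RNA-binding protein of germ cells, fell by 2.39 ± 0.47 into Diff, while Ddx4, a germ cell helicase, rose by 1.42 ± 0.49. In nEnd Dazl was at least 28-fold lower than in ESC, with 0 of 6 nEnd arrays well above background.

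Sycp3, of the meiotic chromosome axis, was at least 56.3-fold lower in XEN than in ESC and at least 5.83-fold higher in nEnd than in XEN. Dazl was at least 137-fold lower in EpiSC than in 2iL and well above background on 0 of 3 EpiSC arrays. Not all of the list was low in EpiSC. Sycp3 had a mean level of 4.16 there, well above background on 3 of 3 arrays, and fell by 4.27 ± 0.47 into ADE. In EpiSC minus 2iL 1 of the 11 genes tested was called higher, beside 21.4% of all genes. Ddx4 rose by 2.68 ± 0.46 in NACL minus 2iL.

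Markers of other cells moved with the second set. Summed over 5 feeder or fibroblast markers, relative signal was 15.6 to 21.7 in EpiSC, 3.67 to 17.5 in ADE, 1.71 to 2.74 in 2iL and 2.59 to 17.9 in NACL, and all 5 markers were measured on all EpiSC arrays. Summed neural markers were 39 to 58.9 in EpiSC against 2.01 to 5.25 in 2iL. Most of the EpiSC sum was Nes, with a mean level of 5.42 in EpiSC and 1.38 in 2iL. Sox1 had 1.56 and -1.18, and Pax6 was well above background on 2 of 3 EpiSC arrays (mean level -4.55). The part of cells with feeder or neural markers in the EpiSC and ADE values was not tested. In the first set the feeder sum was 0.30 to 1.37 on all arrays. Of the feeder markers, Postn was not well above background on any array of that set, while Col1a2 was on every one. Col1a1 was well above background on all ESC arrays, Thy1 on all ESC and Diff arrays, and Dcn on all XEN arrays.

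The order of levels within each set can be read from the fit of every pair of groups. For Uhrf1 it ran ESC, XEN, Diff, Late, Mid in the first set, where Diff, Late and Mid did not differ between neighbours (adjusted p = 0.82 and 0.19). For Dnmt1 the same order held, with ESC and XEN not told apart (adjusted p = 0.6) nor Diff, Late and Mid (adjusted p = 0.4 and 0.48). For Dnmt3a, Mid, Late, Diff and XEN did not differ between neighbours (adjusted p = 0.54, 0.76 and 0.85) and stood above ESC. For Dnmt3b the order was Diff, Late, XEN, Mid, ESC, with only the last step called (adjusted p = 8e-04). Dnmt3l stood alone in Diff, followed by ESC, Late, Mid and XEN with no neighbour called apart (adjusted p = 0.12, 0.28 and 0.52).

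For Tet1 the order was ESC, Diff, XEN, Late, Mid, with ESC above Diff and XEN above Late called and the other steps not (adjusted p = 0.23 each). Tet2 ran ESC, Diff, Mid, XEN, Late, with the last 3 not told apart from their neighbours (adjusted p = 0.23 and 0.44). In the second set NACL and 2iL were neighbours for all 8 members, and no member was called between them in this fit, which leaves line out. Across the sets, ESC and 2iL are both kept in 2i with LIF, and ESC minus 2iL was called for Dnmt3b (-1.42 ± 0.38, limma adjusted p = 0.02) and Dnmt3l (-1.95 ± 0.60, adjusted p = 0.04) and not for the other 6, beside 10.1% of all genes. Set, line and software cannot be told apart in that difference.

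Differentiation into Diff and into ADE was compared as a difference of differences, (Diff minus ESC) minus (ADE minus EpiSC), in which an additive shift between the array sets cancels. Of 8 members 5 were called, 3 higher and 2 lower, beside 36.7% of all genes (21.9% higher and 14.9% lower). Dnmt3l differed by 6.00 ± 0.82 (limma adjusted p = 4.7e-06), since it rose into Diff and fell into ADE. Dnmt3a differed by 3.67 ± 0.55 (adjusted p = 1.5e-05) and Tet2 by -3.18 ± 0.44 (adjusted p = 5.2e-06), also with opposite signs on both sides. Uhrf1 fell in both and by more into Diff, a difference of -1.53 ± 0.38 (adjusted p = 0.0027), which lost its call with median centring. Dnmt3b rose in both, and its difference of 1.41 ± 0.52 (adjusted p = 0.036) lost its call when any of 9 single arrays was left out. In the limma fit of all probes, Dnmt3b probe 2 was not called (1.21 ± 0.49, adjusted p = 0.068) and probe 3 was (1.50 ± 0.52, adjusted p = 0.033). Tet1 and Dnmt1 fell or were lower on both sides. Their differences of -0.79 ± 0.53 (adjusted p = 0.26) and -0.35 ± 0.33 (adjusted p = 0.44) were not called. The second Tet1 probe was called in the fit of all probes (-1.06 ± 0.36, limma adjusted p = 0.029), so the Tet1 result depended on the probe.

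Activin, CHIRON and LIF were given both to Diff and, as stable stem cell culture, to NACL. In (Diff minus ESC) minus (NACL minus 2iL) 6 of 8 members were called, 2 higher and 4 lower, beside 30.2% of all genes (17% higher and 13.2% lower). Tet1 differed by -3.07 ± 0.53 (limma adjusted p = 0.00012), Tet2 by -2.01 ± 0.44 (adjusted p = 0.0012) and Uhrf1 by -1.92 ± 0.38 (adjusted p = 0.00047). Dnmt3b differed by 2.89 ± 0.52 (adjusted p = 0.00017) and Dnmt3l by 2.69 ± 0.82 (adjusted p = 0.015), the latter not called without 2iL 2 (2.07). For Dnmt3b and Dnmt3l the starting levels also differed across the sets, with ESC minus 2iL at -1.42 and -1.95. The part of these starting levels in both values was not tested. Dnmt1 differed by -0.94 ± 0.33 (adjusted p = 0.035), a call that 8 single arrays could end, with -0.62 without Diff 1. Dnmt3a, at 1.45 ± 0.55 (adjusted p = 0.05), was not called and became a call in 8 alternatives, among them quantile normalization (1.65) and the fit without 2iL 2 (2.00). Lines differ between the sets, and line and treatment cannot be told apart here.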

How the data were processed

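The 8 members and the gene lists were chosen with earlier results of these data known. The scanner files are, per the file headers, Agilent Feature Extraction output as deposited, an intensity per spot that the software had background-corrected, made with version 11.0.1.1 (first set) or 12.0.1.1 (second set); the submitters' processing notes give 9.1. The headers name build mm9, and no coordinates were taken from it. The authors also deposited a table whose values were read as log2 (column medians 5.94 to 5.949, r = 0.909 to 0.937 with the log2 scanner signal); its scale base and background step are unknown, and it served as an alternative.

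Spots flagged as irregular were left out (132 to 243 of 59305 per array), spots of a probe averaged, and log2 of the signal taken minus log2 of the array's 75th percentile over all non-control probes (137.4 to 323.3 intensity units). Accessions named 27636 probes through RefSeq names of GRCm38.p6. The probe with the highest mean stood for a gene (5552 genes have several), and genes were tested if in 1 group or more every array had this probe well above background. Where no array of a group had it so, that group has only a bound. The fold is then "at least" the mean of the bright group over that of the dim one, with each dim array at the higher of its own signal and the lowest signal well above background.

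One limma model of 9 group means was fitted to 29 arrays (lmFit and eBayes, limma 3.58.1, R 4.3.3; Python 3.11.15, matplotlib 3.10.9) for 11 comparisons, with nEnd the mean of Mid and Late. On simulated data for Diff minus ESC, 100 of 16350 genes were changed at each size, with noise independent between genes. There it recovered 39% of changes of 1 and 91% of changes of 3 (log2), with 3 false calls. In the data themselves 42.3% of genes were called in that comparison, so these rates check the code and do not carry over. Named were the 8 members, the 3 genes most like each (1 is not reported here), and up to 3 called genes with the smallest adjusted p per list. Same-numbered Late and Mid arrays correlated at 0.216, 0.129 and 0.141 in their deviations from the group means, so these numbers were taken as pairs, as separate differentiations; in the other comparisons not every pair was above 0.1. nEnd arrays were fitted as independent, so SE of nEnd comparisons may be too small. Alternatives were 2 other scalings, normexp, no filter, the mean of probes, the deposited table, blocks for replicate, slide, scan day and line, fewer arrays, and each array left out; slide as a fixed block and the paired fit of Mid and Late alone were added after the data were seen. The number of arrays limits the precision.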

Additional observations from a re-analysis of the deposited data

Results flagged for a closer look

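The difference of differences was called for 11 member results, so their changes differ between the pairs of groups compared. Between (Diff minus ESC) and (ADE minus EpiSC) the values were 5.995 for Dnmt3l, 3.674 for Dnmt3a, 1.406 for Dnmt3b, -1.531 for Uhrf1 and -3.18 for Tet2. Between (Diff minus ESC) and (NACL minus 2iL) they were 2.891 for Dnmt3b, 2.689 for Dnmt3l, -0.938 for Dnmt1, -1.922 for Uhrf1, -2.005 for Tet2 and -3.071 for Tet1. In the groups of 4 arrays, ADE and NACL, no array of a member stood apart from its group by Dixon's test (16 tested, 0 found, where chance gives about 1 in 20).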

How the results depend on the processing

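Of the counts of called members, those for Mid minus Diff and NACL minus 2iL moved by over 1.5 times. Mid minus Diff fell from 5 to 3 on the first scan day alone, without Tet2 and Uhrf1. NACL minus 2iL rose from 0 to 1 (Dnmt3l) with normexp, with slide as a random block and with cell line as a block, and ranged from 0 to 1 without single arrays. With a replicate block no count of members moved by over 1.5 times, and for single members 1 call was lost, Uhrf1 in Mid minus Diff (-0.74, SE 0.30). For Late minus Mid the paired fit of these groups alone kept 0. For Tet3, nEnd minus ESC gave 0.008 (adjusted p = 0.96, no difference) in the deposited table, which holds probe 3 alone of its probes, so that probe and processing changed together and the cause was not tested. This table holds no probe of Tet1 or Tet2 and so gave no counts over 8. The mean of all Tet3 probes turned the sign, with nEnd minus ESC at 0.93, XEN minus ESC 1.04 and ADE minus EpiSC 0.17. Among single members under all alternatives, 1601 values kept their call or their lack of one, 68 lost and 33 gained a call, and 4 changed sign with a call on at least 1 side. Values not called could change sign, as Tet2 in nEnd minus XEN did (-0.27 to 0.28).

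Over all genes, median centring moved the median of Diff minus ESC from -0.04 to 0.32, of XEN minus ESC from 0.03 to 0.67 and of nEnd minus XEN from -0.03 to -0.38, and the percentage of calls that lay above 0 from 55.4% to 74.1%, 58.8% to 78.3% and 40.4% to 24%. It gave 66.3% in place of 52.6% for nEnd minus ESC, 73.6% in place of 59.5% and 79.3% in place of 56.2% for the differences of differences. Genes called in Late minus Mid fell from 1118 to 384 with it and to 254 in the fit on these groups alone, in Mid minus Diff from 4756 to 2902 and 2727, and in NACL minus 2iL from 1348 to 849 and 450. Late minus Mid gave 493 without Mid 1, 656 without Mid 2, 438 without Late 1 and 409 without Late 3, and NACL minus 2iL gave 820 without 2iL 1. The share above 0 in Late minus Mid was 55.2%, 23.4% with median centring and 38.8% with quantile normalization.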
